A study of Homo sapiens with 12 samples.

Results

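The tumour necrosis factor (TNF) superfamily, its receptors and the adaptors they use were followed in 2 human cancer cell lines treated with selpercatinib, which blocks the kinase activity of the receptor RET. Members were chosen by gene symbol: every row whose symbol began with TNFRSF or TNFSF, the adaptors TRAF1 to TRAF7, 2 cellular inhibitor of apoptosis proteins (cIAPs), and ligands and receptors with older names such as FAS, CD40 and LTBR. This gave 50 genes of 37247 rows, namely 14 ligands, 7 death receptors, 4 decoy receptors, 15 receptors that bind TRAFs without a death domain, 7 TRAF adaptors, 2 cIAPs and the readthrough transcript TNFSF12-TNFSF13. No pseudogene row met the rule. TNF itself and LTA, 2 of the names sought, matched no row and are not analysed here. No member's value entered the rule, but the family was proposed with the comparison of treated and parent cells already known. Counts over the members are therefore a description and no evidence about the family.

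LC-2/ad is a lung adenocarcinoma line and TPC-1 a papillary thyroid carcinoma line, both established lines known to carry a RET fusion, which is what the series title calls RET-aberrant. RNA of each was sequenced from parent cells without treatment and from cells kept for 48 h in selpercatinib at 100 nM. There were 3 libraries in each of the 4 groups. All cells grew in serum-containing medium, and no solvent control is named for the parent cells. Whether the libraries of a group stem from separate cultures is not stated, and the p-values therefore reflect no more than the spread of the libraries, which may be technical. Values are TPM (a relative transcript abundance), which are scaled by transcript length and can be compared between genes of a library. TPM keep no read counts, so depth is unknown and no counting interval is given.

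Ligands of this superfamily are mostly trimers on the cell surface or released from it. Death receptors such as FAS carry an intracellular death domain through which they can recruit caspases, whereas the other receptors bind TRAF proteins, which with the cIAPs attach ubiquitin chains and switch on NF-kB and MAP kinases. Decoy receptors bind ligand without passing on the death signal. NF-kB in turn is known to induce TRAF1 and BIRC3, so that parts of the pathway are also its targets.

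The labelled lines were set against marker genes. LC-2/ad parent cells had NKX2-1, a lung and thyroid lineage factor, at 110 TPM, CDH1 at 169 TPM and KRT7 at 2440 TPM, but the surfactant gene SFTPC was listed at 0 and SFTPB was below 1 TPM. TPC-1 parent cells had PAX8, a thyroid lineage factor, at 190 TPM and KRT7 at 2030 TPM, whereas NKX2-1 was listed at 0 and the thyroid genes TG, TSHR and SLC5A5 were all below 1 TPM on average. Many members are known from immune cells, so 7 blood cell markers were summed: the sum ran from 0.278 to 2.33 TPM over the 12 libraries, none of the 7 reached the level needed for testing, and MS4A1 and HBB were listed at 0 throughout. In LC-2/ad 4 endothelial markers summed to between 14.5 and 17.8 TPM, mainly KDR, and in TPC-1 to at most 0.611 TPM. The 5 fibroblast markers summed to 28.9 to 40.9 TPM in LC-2/ad and 26.5 to 36.3 TPM in TPC-1, mainly COL1A1. In LC-2/ad 2 of the endothelial and 2 of the fibroblast markers were tested. Of these CDH5 and LUM passed, both higher after treatment, in a line where 55% of all genes tested passed in either direction. LUM, at 0.495 TPM in parent and 2.12 TPM after treatment, was tested through its treated libraries alone. The part of these cell types in the results below was not tested. Lineage markers also moved with treatment. All 4 tested thyroid markers were higher in treated LC-2/ad cells (FOXE1 by 1.56, PAX8 by 0.53, KRT7 by 0.47 and NKX2-1 by 0.35 on the log2 scale). Of all genes tested there 30.6% were higher, and KRT7 and NKX2-1 also served as lung markers. In TPC-1 PAX8 was higher by 0.53 and KRT7 by 0.38, against 3.75% of all genes. FOXE1 did not pass in TPC-1, at 0.02 (limma, adjusted p = 0.928). EPCAM was lower in LC-2/ad at -0.2. On the first principal component TPC-1 parent library 1 lay at -4.93, against -17.7 and -23.3 for the other parent libraries, so values without it are given beside the results whose call it changed.

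A gene was tested in a line where its mean TPM over the 6 libraries was at least 1. Log2 fold changes are treated minus parent on the log2(TPM + 1) scale, given with their standard error (SE). They understate the change of low genes. A gene is called higher or lower where limma's Benjamini-Hochberg adjusted p over all tested genes of the line was under 0.05. In bulk RNA fewer cells of a type and less RNA per cell cannot be told apart.

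In LC-2/ad 34 members were tested, of which 14 were called higher, 5 lower and 15 neither. Of all 14118 genes tested there, 55% were called, 30.6% higher and 24.4% lower, against 55.9% of the tested members, and the median log2 fold change was 0.23 for the members and 0.07 for all genes. In TPC-1 27 members were tested, of which 5 were called higher and 1 lower. Of all 12825 genes tested in TPC-1, 4.96% were called, 3.75% higher and 1.21% lower, against 22.2% of the members, and the medians were 0.19 for the members and 0.05 for all genes. Nothing is read from either share, since this comparison was known when the family was proposed. With median-of-ratios scaling the calls over all genes were 3447 higher and 4317 lower in LC-2/ad, against 4319 and 3451, and 419 higher and 252 lower in TPC-1, against 481 and 155. Called higher in both lines were TRAF1, TNFRSF9, BIRC3 and TNFRSF19, and no member was called lower in both. The share of all genes called in both lines was not counted, so nothing is read from this overlap.

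**Figure D1:**
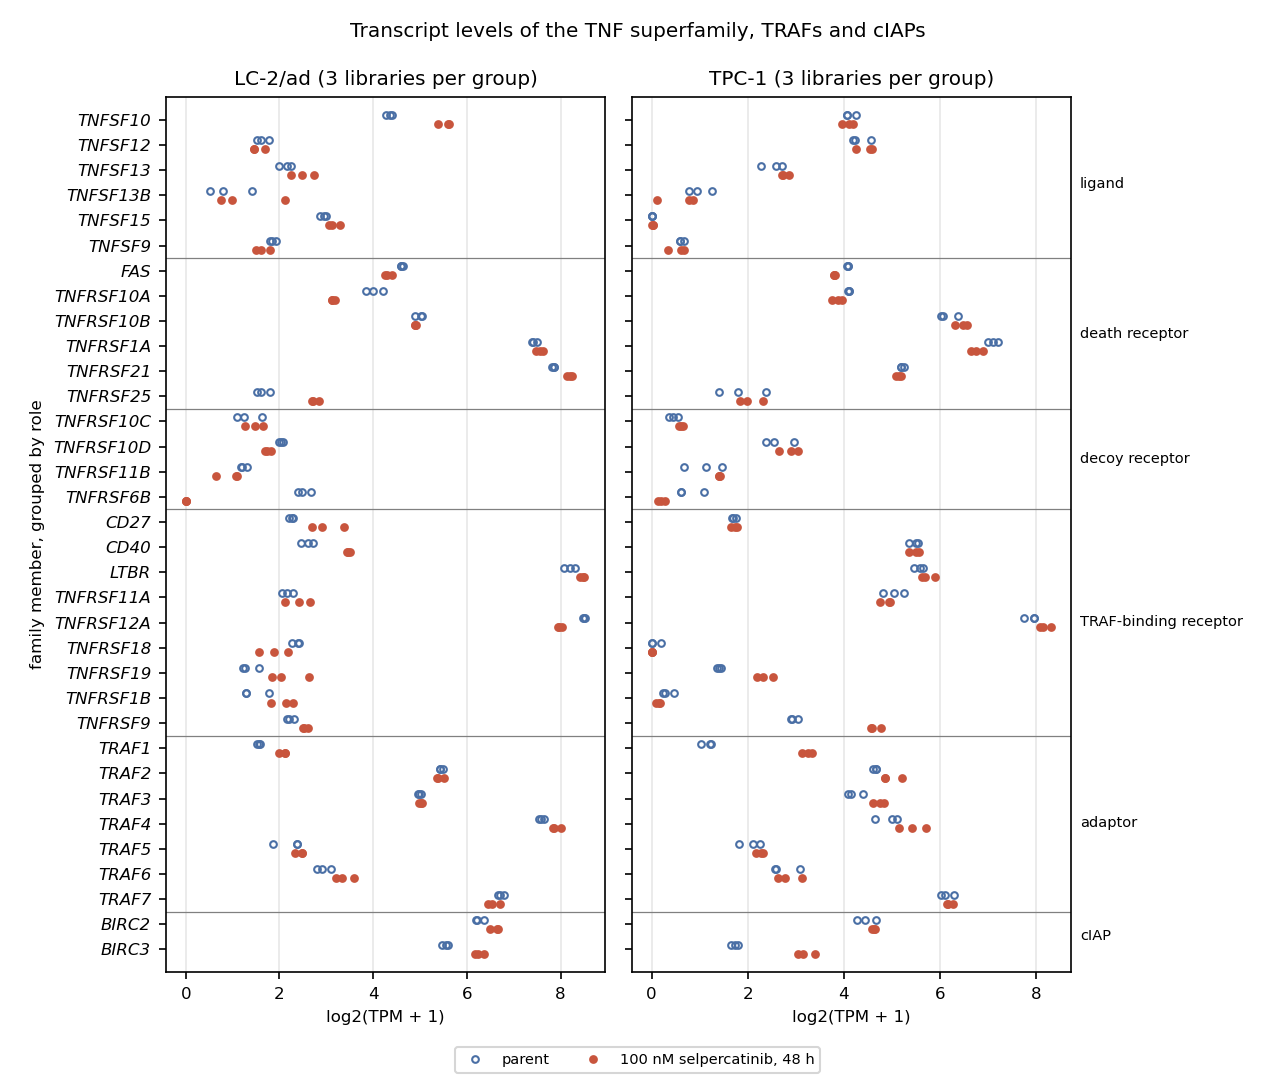
Transcript levels on the log2(TPM + 1) scale (horizontal axis) of the members tested in at least 1 line, grouped by role (vertical axis), with open points for the 3 parent libraries and filled points for the 3 treated libraries of each line. Treated TNFSF10 points lie to the right of the parent points in LC-2/ad and among them in TPC-1, while for TRAF1 and BIRC3 the filled points lie to the right in both lines.

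In parent cells the most abundant member was the same in both lines. TNFRSF12A (FN14, the receptor of TWEAK) stood at 361 ± 6.17 TPM (SD, n = 3) in LC-2/ad parent cells and 238 ± 19.9 TPM in TPC-1. In LC-2/ad it was followed by LTBR at 292 TPM, TNFRSF21 at 228 TPM, TRAF4 at 192 TPM and TNFRSF1A at 171 TPM, and the parent libraries of these 5 genes did not overlap from one rank to the next. TRAF3 and TNFRSF10B, at 30.6 and 30.5 TPM, could not be ordered. In TPC-1 the order after TNFRSF12A was TNFRSF1A at 138 TPM, TNFRSF10B at 70.7 TPM, TRAF7 at 69.8 TPM, LTBR at 46.5 TPM and CD40 at 43.4 TPM. TNFRSF10B and TRAF7 overlapped there, as did LTBR and CD40. After treatment LTBR at 352 TPM and TNFRSF21 at 292 TPM stood above TNFRSF12A at 252 TPM in LC-2/ad. In treated TPC-1 cells TNFRSF12A stayed the highest, at 291 TPM. The lines were deposited as separate tables, so levels are not tested between them.

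In LC-2/ad, where 55% of all genes tested were called, 6 ligands were tested, and in TPC-1 3. The only one called was TNFSF10, in LC-2/ad. It encodes TRAIL (ENSG00000121858, GRCh38 chr3:172505508-172523507), which triggers apoptosis through its death receptors. In LC-2/ad parent libraries 1 to 3 it stood at 20.2, 18.2 and 19.4 TPM, and in the treated libraries at 47.4, 48.4 and 40.7 TPM. The lowest treated library was thus well above the highest parent library, at a log2 fold change of 1.19 ± 0.08 (limma, adjusted p = 1.24e-05). In TPC-1 the parent libraries held 15.8, 18.1 and 15.7 TPM and the treated ones 17.4, 16.2 and 14.7 TPM. These overlap, at -0.03 ± 0.1 (adjusted p = 0.881), and the responses of the lines differed by -1.23 ± 0.13 (TPC-1 minus LC-2/ad, adjusted p = 9.64e-06). The summed ligand level in LC-2/ad was 35.9 ± 0.396 TPM without treatment against 65.2 ± 5.81 TPM with it, of which TNFSF10 made up 69.8% after treatment.

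The 250 bases before a RefSeq start of TNFSF10 (GRCh38.p14, chr3:172523431-172523680, minus strand) are shown because this ligand had the largest log2 fold change among members called higher in LC-2/ad. Capitals mark an interferon response element core, which is GAAA, any 2 bases and GAAA, here on the opposite strand at 187 to 178 bases before the start.
TNFSF10: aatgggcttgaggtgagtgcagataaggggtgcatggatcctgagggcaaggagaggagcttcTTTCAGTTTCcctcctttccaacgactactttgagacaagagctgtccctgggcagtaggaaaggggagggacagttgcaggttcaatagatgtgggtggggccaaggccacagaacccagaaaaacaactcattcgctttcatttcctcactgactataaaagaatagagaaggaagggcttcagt
That core stood in 3.02% of the 35116 promoter windows of this length in the RefSeq table and in windows of 5 members, FASLG, TNFRSF1B, TNFSF10, TNFSF13B and TNFSF9. A match describes the letters and shows no binding.

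The other ligands were low or did not pass. TNFSF12 (TWEAK, the ligand of TNFRSF12A) stood at 2.11 ± 0.273 TPM in parent cells of LC-2/ad against 19.3 ± 3.1 TPM in those of TPC-1, with log2 fold changes of -0.1 ± 0.15 and 0.13 ± 0.13 (limma, adjusted p = 0.609 and 0.611). TNFSF13 (APRIL) had values of 0.36 ± 0.15 and 0.25 ± 0.14 (adjusted p = 0.0783 and 0.363); without LC-2/ad treated library 1 the former was 0.48 (adjusted p = 0.034). TNFSF12, TNFSF13 and their readthrough overlap on the same strand, so the split of reads among them is uncertain. TNFSF15 (TL1A) went from 6.65 to 7.93 TPM in LC-2/ad at 0.22 ± 0.1 (adjusted p = 0.0889), and was below the level for testing in TPC-1. TNFSF9 (4-1BB ligand) and TNFSF13B (BAFF) were also tested in LC-2/ad alone and did not pass, at adjusted p = 0.204 and 0.444. Though not called, TNFSF13 in both lines and TNFSF15 in LC-2/ad had every treated library above every parent one. For TNFSF9 in LC-2/ad every treated library was below. The other 8 ligands, among them FASLG, CD70, LTB and TNFSF11 (RANKL), were too low to test in either line.

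The death receptors differed in direction within LC-2/ad. Of 6 tested, TNFRSF21 and TNFRSF25 were higher and TNFRSF10A and FAS lower, and in TPC-1 TNFRSF1A was the one called, lower. Of all genes tested 55% were called in LC-2/ad, against 4.96% in TPC-1. TNFRSF25, the receptor of TL1A, stood in LC-2/ad at 1.88, 2.47 and 2.04 TPM in parent and 5.46, 5.54 and 6.23 TPM in treated libraries. It rose by 1.11 ± 0.12 on the log2 scale (limma, adjusted p = 0.000182), with every treated library above every parent one, and the value was 1.4 with a pseudocount of 0.1 and 0.59 with 5. In TPC-1 its parent libraries spread from 1.63 to 4.24 TPM and the treated ones from 2.59 to 4.01 TPM, at 0.19 ± 0.26 (adjusted p = 0.715). The difference between the lines, -0.92 ± 0.3 (adjusted p = 0.0324), lost its call in 7 of the 12 fits without 1 library, where adjusted p ran from 0.0515 to 0.0735, TPC-1 parent library 1 (4.24 TPM) among them at -0.65 (adjusted p = 0.0542). TNFRSF25 overlaps PLEKHG5 on the same strand, so reads may be shared with it.

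TNFRSF21, known as death receptor 6, was among the most abundant members of LC-2/ad. Its parent libraries there held 223, 231 and 230 TPM and its treated libraries 293, 301 and 281 TPM. The groups did not overlap, at 0.35 ± 0.04 (limma, adjusted p = 0.000134). In TPC-1 it stood at 35.7, 35.8 and 37.4 TPM in parent and 34.8, 35.4 and 33.3 TPM in treated libraries, at -0.07 ± 0.06 (adjusted p = 0.583), and the difference of responses was -0.42 ± 0.06 (adjusted p = 0.000203).

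The TRAIL receptors lie together on chromosome 8, TNFRSF10A at chr8:23190452-23225126 and TNFRSF10B at chr8:23020133-23069179 in GRCh38, and they did not move together. TNFRSF10A (TRAIL receptor 1) fell in LC-2/ad from 17.4, 14.9 and 13.4 TPM in parent to 7.67, 8.15 and 7.66 TPM in treated libraries. This was a log2 fold change of -0.87 ± 0.1 (limma, adjusted p = 0.000229) with no overlap of the groups, and it ran opposite to the rise of its ligand TNFSF10. In TPC-1 the parent libraries were at 16.4, 16.3 and 16.1 TPM and the treated ones at 14.7, 13.8 and 12.6 TPM. These groups did not overlap either, but the change of -0.24 ± 0.09 did not pass (adjusted p = 0.171), and the responses differed by 0.64 ± 0.13 (adjusted p = 0.0025).

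TNFRSF10B (TRAIL receptor 2) was not called in either line. It stood in LC-2/ad at 31.8, 31.3 and 28.5 TPM in parent and 29.3, 28.7 and 28.5 TPM in treated libraries (-0.08 ± 0.06, limma adjusted p = 0.298). The TPC-1 libraries held 81.9, 64.2 and 66.1 TPM in parent and 94.3, 88.8 and 78.5 TPM in treated libraries (0.3 ± 0.1, adjusted p = 0.135). The highest TPC-1 parent value came from library 1, and without that library the change was 0.41 (adjusted p = 0.0334). The difference between the lines of 0.38 ± 0.13 (adjusted p = 0.0345) lost its call in 9 of the 12 fits without 1 library, at adjusted p from 0.0522 to 0.0815. TNFRSF10A made up 35.4, 32.3 and 32.0% of the summed TPM of these 2 receptors in LC-2/ad parent libraries and 20.7, 22.1 and 21.2% in treated ones. In TPC-1 the shares were 16.7, 20.2 and 19.6% in parent and 13.5, 13.5 and 13.8% in treated libraries, so the share was lower in every treated library of both lines.

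**Figure D2:**
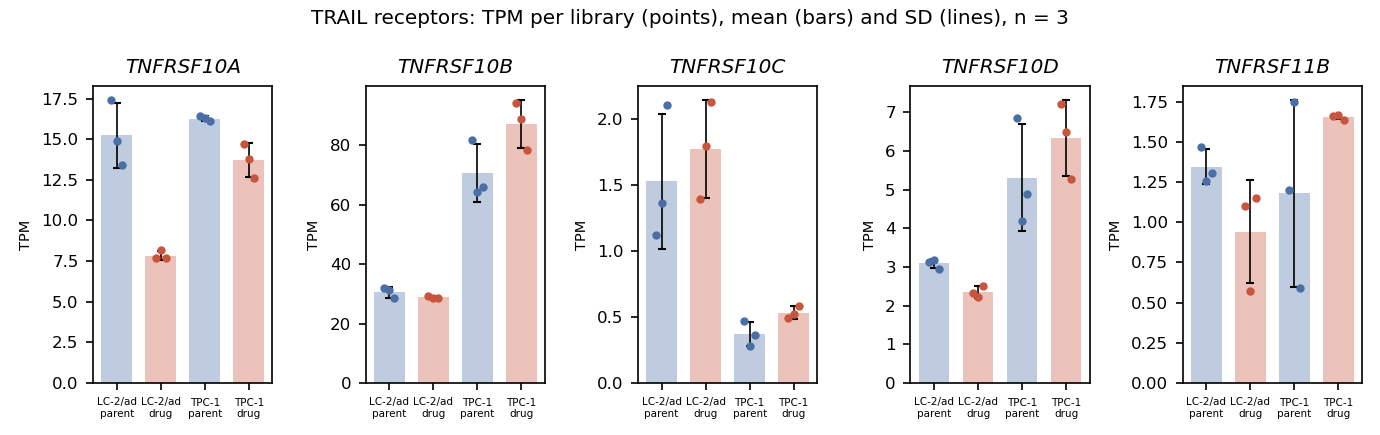
TPM (vertical axes, which start at 0 and differ between panels) of the 5 receptors that bind TRAIL in the 4 groups, with points for libraries, bars for means and lines for the SD of 3 libraries; "drug" is 100 nM selpercatinib for 48 h. TNFRSF10A falls in treated LC-2/ad cells from a mean of 15.2 to 7.82 TPM, while TNFRSF10B stays between 28.5 and 31.8 TPM in that line.

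TNFRSF1A, the TNF receptor of most cell types, stood in TPC-1 at 147, 128 and 138 TPM in parent and 118, 107 and 100 TPM in treated libraries. The groups did not overlap, at -0.35 ± 0.08 (limma, adjusted p = 0.036), but the call was lost without parent library 1 or 3 or treated library 2 or 3, at adjusted p from 0.07 to 0.131. Without parent library 1 the change was -0.3. In LC-2/ad it stood at 166, 170 and 179 TPM in parent and 187, 176 and 196 TPM in treated libraries, at 0.12 ± 0.05 (adjusted p = 0.0794), and at 0.16 (adjusted p = 0.034) without treated library 2. The difference of the responses was -0.46 ± 0.1 (adjusted p = 0.00221). FAS fell in LC-2/ad by 0.29 on the log2 scale (SE 0.06, adjusted p = 0.00596). In TPC-1 its 3 parent libraries lay between 15.9 and 16.0 TPM and its treated ones between 12.9 and 13.1 TPM, at -0.27 ± 0.08 (adjusted p = 0.0888), and the responses differed by 0.01 ± 0.09 (adjusted p = 0.926). With median-of-ratios scaling FAS passed in TPC-1 too (adjusted p = 0.046). FAS overlaps ACTA2 on the other strand, and no strand setting of the counting is given in the sources used here. NGFR, the death domain receptor of neurotrophins, was below the level for testing in both lines, at 1.11 TPM in LC-2/ad parent and 0.453 TPM in treated cells.

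Of the 4 decoy receptors 1 was called, in LC-2/ad, where 55% of all genes tested were called. TNFRSF6B (GRCh38 chr20:63696651-63698684), a secreted decoy for FAS ligand, LIGHT and TL1A, stood in LC-2/ad parent libraries at 5.37, 4.60 and 4.25 TPM. In all 3 treated libraries it was listed at 0, so no fold is given, and it was tested through its parent libraries alone. In TPC-1 it was too low to test, at 1.14, 0.538 and 0.519 TPM in parent and 0.212, 0.145 and 0.102 TPM in treated libraries. The treated values were thus below the parent values in both lines. TNFRSF6B lies within the readthrough gene RTEL1-TNFRSF6B on the same strand, which stood in LC-2/ad at 2.44, 2.54 and 2.47 TPM in parent and 2.24, 2.04 and 3.06 TPM in treated libraries. In TPC-1 the readthrough stood at 0.67, 0.378 and 0.455 TPM in parent and 0.754, 1.01 and 0.72 TPM in treated libraries. There it was higher in treated libraries, while TNFRSF6B was lower. How reads were divided between the 2 is uncertain, and a 0 may be a failed estimate. The TRAIL decoys TNFRSF10C and TNFRSF10D and the RANKL decoy TNFRSF11B were not called. TNFRSF10D had 3.09 TPM in LC-2/ad parent and 2.35 TPM in treated cells (-0.29 ± 0.12, limma adjusted p = 0.0749) and 0.23 ± 0.18 in TPC-1 (adjusted p = 0.508). The responses differed by 0.52 ± 0.22, which did not pass (adjusted p = 0.0823), but passed at 0.69 (adjusted p = 0.0149) without TPC-1 parent library 1 and at 0.63 (adjusted p = 0.0457) without treated library 3. TNFRSF10C and TNFRSF10D together made up 7.93 to 10.8% of the TPM of the 4 surface TRAIL receptors in LC-2/ad parent libraries and 9.12 to 11.4% in treated ones, with overlap.

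Of the receptors that bind TRAFs, 6 of 9 tested were higher and 2 lower in LC-2/ad, and 2 of 7 were higher in TPC-1. Of all genes 30.6% were higher and 24.4% lower in LC-2/ad, and 3.75% higher in TPC-1. TNFRSF9 encodes 4-1BB, a costimulatory receptor best known on activated T cells (ENSG00000049249, GRCh38 chr1:7915894-7943165). In TPC-1 it stood at 6.52, 6.59 and 7.29 TPM in parent and 26.4, 23.1 and 22.9 TPM in treated libraries. This was a ratio of means of 3.54 and a log2 fold change of 1.68 ± 0.1 (limma, adjusted p = 8.28e-05), with the groups far apart. In LC-2/ad its values were 3.50, 3.95 and 3.59 TPM in parent and 4.70, 5.06 and 4.77 TPM in treated libraries, a smaller change of 0.32 ± 0.1 (adjusted p = 0.0317). That call was lost in 5 of the 6 fits without 1 library, all but the one without parent library 2, at adjusted p from 0.0582 to 0.0865. The response in TPC-1 exceeded that in LC-2/ad by 1.36 ± 0.13 (adjusted p = 6.02e-06). The 7 blood cell markers together summed to 0.278 to 0.895 TPM in parent libraries of TPC-1 and 0.522 to 1.14 TPM after treatment, with MS4A1 and HBB listed at 0 and none tested; their part in the result was not tested.

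TNFRSF19 (TROY) rose in both lines. In LC-2/ad it stood at 1.42, 1.95 and 1.35 TPM in parent and 5.17, 3.08 and 2.60 TPM in treated libraries (0.81 ± 0.22, limma adjusted p = 0.0155). The TPC-1 values were 1.64, 1.71 and 1.57 TPM in parent and 4.77, 4.0 and 3.56 TPM in treated libraries (0.95 ± 0.15, adjusted p = 0.00965). The groups did not overlap in either line, and the difference of responses was 0.14 ± 0.27 (adjusted p = 0.732). Without LC-2/ad parent library 3 the change there was 0.75 (adjusted p = 0.0506). With a pseudocount of 0.1 or 5 the TPC-1 value was 1.27 or 0.45, and the LC-2/ad value 1.11 or 0.38, all called.

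CD40 and CD27 were called in LC-2/ad and not in TPC-1. CD40, the receptor of CD40 ligand, rose in LC-2/ad from 5.6, 5.1 and 4.54 TPM to 9.91, 10.3 and 9.97 TPM (0.87 ± 0.1, limma adjusted p = 0.000173). In TPC-1 it stood at 45.8, 44.3 and 40.2 TPM in parent and 39.9, 46.7 and 44.4 TPM in treated libraries (0.01 ± 0.08, limma adjusted p = 0.973). The TPC-1 groups overlap, and the responses differed by -0.86 ± 0.12 (adjusted p = 0.000137). CD27, the receptor of CD70, had 3.61, 3.87 and 3.81 TPM in LC-2/ad parent and 5.52, 6.47 and 9.42 TPM in treated libraries (0.74 ± 0.17, adjusted p = 0.00733), treated library 3 being the highest. In TPC-1 it had 2.37, 2.23 and 2.18 TPM in parent and 2.35, 2.43 and 2.16 TPM in treated libraries, and the responses differed by -0.72 ± 0.22 (adjusted p = 0.0197). CD27 overlaps TAPBPL on the same strand, and TAPBPL went in LC-2/ad from 36.7, 32.9 and 35.8 TPM to 67.2, 68.1 and 66.9 TPM. In TPC-1 TAPBPL went from 5.61, 5.49 and 5.86 TPM to 9.88, 9.63 and 7.27 TPM. The part of TAPBPL reads in the CD27 values was not tested.

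For TNFRSF12A the direction differed between the lines. It fell in LC-2/ad from 360, 367 and 355 TPM to 250, 244 and 260 TPM, at -0.52 ± 0.04 (limma, adjusted p = 1.33e-05). TPC-1 had 250, 215 and 249 TPM in parent and 282, 318 and 273 TPM in treated libraries, at 0.29 ± 0.08, which did not pass (adjusted p = 0.0694) but passed where testing started at a mean of 5 TPM (adjusted p = 0.0448). The groups did not overlap in either line, and the responses differed by 0.81 ± 0.09 (adjusted p = 2.18e-05). Of the rest, LTBR, the lymphotoxin beta receptor, rose in LC-2/ad by 0.27 ± 0.06 (adjusted p = 0.00431) and had 0.17 ± 0.09 in TPC-1 (adjusted p = 0.286). TNFRSF1B (TNF receptor 2) had 1.43, 2.44 and 1.44 TPM in LC-2/ad parent and 3.92, 2.53 and 3.38 TPM in treated libraries (0.63 ± 0.2, adjusted p = 0.0278), with parent library 2 just below treated library 2. TNFRSF18 (GITR) had -0.48 ± 0.17 (adjusted p = 0.0425). The TNFRSF1B call was lost in 4 of 6 fits without 1 library (parent 1 or 3, treated 1 or 3; adjusted p from 0.0743 to 0.0878) and the TNFRSF18 call in 5 of 6 (all but treated 3; 0.0666 to 0.109). TNFRSF11A (RANK) was not called, at 0.23 ± 0.16 in LC-2/ad against -0.14 ± 0.12 in TPC-1 (adjusted p = 0.258 and 0.529).

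Among the adaptors TRAF1 changed most. TRAF1 lacks the RING domain of its relatives and binds TRAF2 (ENSG00000056558, GRCh38 chr9:120902393-120929173). In TPC-1 it stood at 1.35, 1.04 and 1.33 TPM in parent and 9.12, 8.55 and 7.76 TPM in treated libraries. The mean was 6.83 times higher after treatment, the largest called ratio of the family in that line, with a log2 fold change of 2.08 ± 0.14 (limma, adjusted p = 0.000162). This value depends on the pseudocount: it was 2.68 with 0.1 and 1.11 with 5 in place of 1. In LC-2/ad TRAF1 rose from 1.95, 2.01 and 1.88 TPM to 3.31, 2.98 and 3.32 TPM (0.51 ± 0.12, adjusted p = 0.00875), and the responses differed by 1.57 ± 0.17 (adjusted p = 1.29e-05). As a share of TRAF1 and TRAF2 together, TRAF1 made up 5.20, 4.24 and 5.17% in TPC-1 parent libraries and 20.3, 23.3 and 21.6% in treated ones. In LC-2/ad the shares were 4.25 to 4.55% in parent and 6.79 to 7.59% in treated libraries.

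TRAF2, which brings the cIAPs to TNF receptors, stood in TPC-1 at 24.6, 23.5 and 24.4 TPM in parent and 35.9, 28.1 and 28.1 TPM in treated libraries (0.32 ± 0.1, limma adjusted p = 0.111). In LC-2/ad it stood at 43.9, 42.2 and 41.9 TPM in parent and 40.3, 40.9 and 44.3 TPM in treated libraries (-0.03 ± 0.06, adjusted p = 0.691). Neither passed, and the difference of 0.35 ± 0.12 (adjusted p = 0.0364) lost its call in 7 of the 12 fits without 1 library (adjusted p from 0.0561 to 0.0793). TRAF3, which holds the noncanonical NF-kB pathway off, rose in TPC-1 from 16.9, 16.1 and 20.1 TPM to 26.1, 27.6 and 23.6 TPM (0.52 ± 0.1, adjusted p = 0.0245). That call was lost without parent library 1 or 2 or treated library 1 or 2 (adjusted p from 0.0509 to 0.094), with a change of 0.49 without parent library 1. In LC-2/ad TRAF3 had 31.3, 30.7 and 30.0 TPM in parent and 32.1, 30.6 and 31.4 TPM in treated libraries, and the difference of responses was 0.49 ± 0.12 (adjusted p = 0.00563). TRAF4 rose in LC-2/ad by 0.31 ± 0.05 (adjusted p = 0.00156) and had 0.51 ± 0.15 in TPC-1 (adjusted p = 0.0981), where the lowest treated library, at 34.8 TPM, was above the highest parent library, at 33.6 TPM. TRAF6, the ubiquitin ligase of Toll-like and IL-1 receptors, rose in LC-2/ad by 0.44 ± 0.13 (adjusted p = 0.0187). Its call was lost without parent library 1 or 3 or treated library 2 (0.0516 to 0.0642). TRAF5 and TRAF7 were not called in either line.

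The cIAPs, ubiquitin ligases that bind TRAF2, are encoded by neighbours on chromosome 11, BIRC3 at chr11:102317450-102339403 and BIRC2 at chr11:102347211-102378670, with starts 29761 bases apart. BIRC3 (cIAP2) rose in both lines. In LC-2/ad it stood at 43.4, 45.7 and 47.1 TPM in parent and 74.4, 80.8 and 70.7 TPM in treated libraries (0.72 ± 0.06, limma adjusted p = 4.49e-05). In TPC-1 it stood at 2.34, 2.47 and 2.13 TPM in parent and 9.56, 7.90 and 7.27 TPM in treated libraries (1.47 ± 0.14, adjusted p = 0.00067). The lowest treated library was above the highest parent library in each line. The ratio of means was 1.66 in LC-2/ad against 3.56 in TPC-1, and the responses differed by 0.76 ± 0.13 (adjusted p = 0.000702). The TPC-1 change was 1.78 with a pseudocount of 0.1 and 0.85 with 5. With a pseudocount of 5 the difference was 0.18 (adjusted p = 0.181). BIRC2 (cIAP1) rose in LC-2/ad by 0.33 ± 0.06 (adjusted p = 0.00325) and had 0.17 ± 0.1 in TPC-1 (adjusted p = 0.405). BIRC3 made up 36.0 to 39.0% of the 2 cIAP transcripts in LC-2/ad parent libraries and 43.1 to 44.7% in treated ones, and in TPC-1 8.75 to 11.9% and 23.4 to 29.3%. The share was higher in every treated library than in any parent library of its line.

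**Figure D3:**
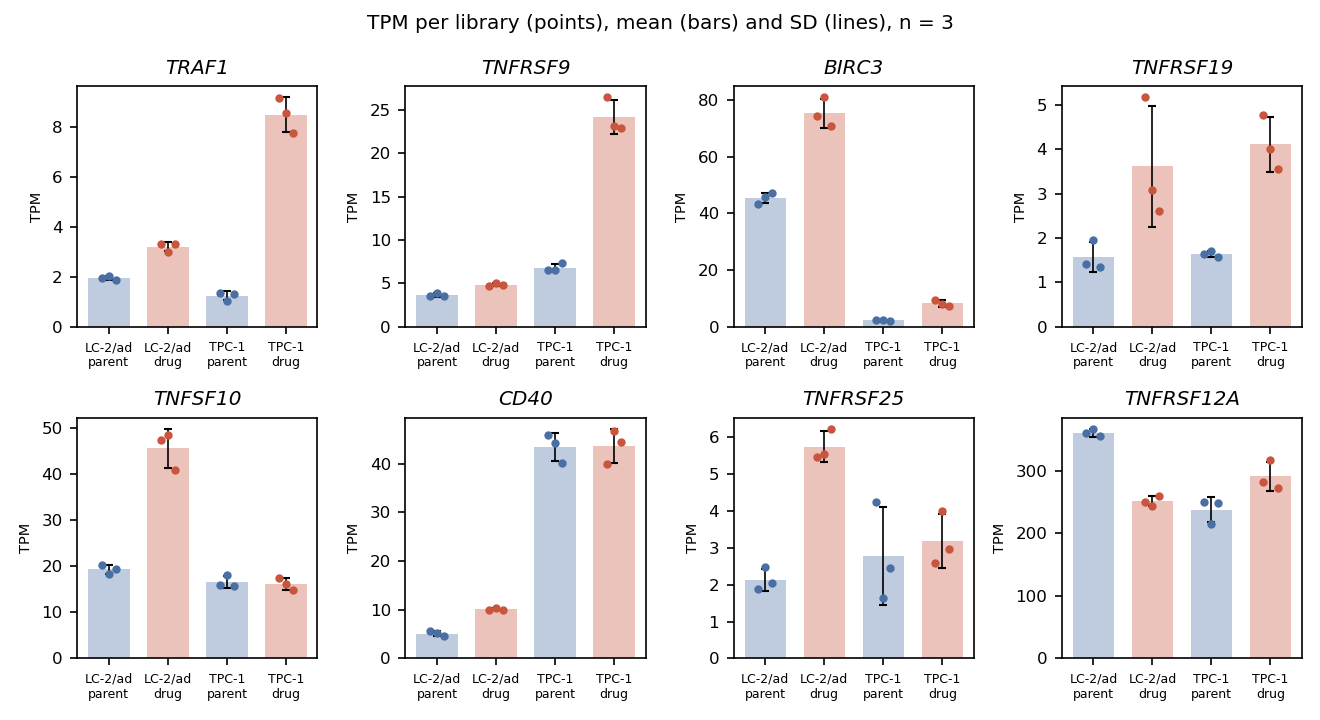
TPM (vertical axes, which start at 0 and differ between panels) of 8 members in the 4 groups, with points for libraries, bars for means and lines for the SD of 3 libraries; "drug" is 100 nM selpercatinib for 48 h. The upper row holds the 4 members called higher in both lines, and in the lower row TNFSF10, CD40 and TNFRSF25 are higher in treated LC-2/ad cells while TNFRSF12A is lower there.

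Promoter windows are shown for TNFRSF9, BIRC3 and TRAF3 because these members rose in TPC-1 and their windows hold an NF-kB consensus. They were picked for the match, so its presence in them is no evidence about the rise. Shown are the 250 bases before a RefSeq start (GRCh38.p14), for TNFRSF9 chr1:7940840-7941089 on the minus strand, for BIRC3 chr11:102317234-102317483 and for TRAF3 chr14:102777199-102777448, both on the plus strand. Capitals mark the matches, at 74 to 64 bases before the start in TNFRSF9 (matches on both strands that overlap), at 199 to 190 and 135 to 126 in BIRC3, and at 33 to 24 in TRAF3.
TNFRSF9: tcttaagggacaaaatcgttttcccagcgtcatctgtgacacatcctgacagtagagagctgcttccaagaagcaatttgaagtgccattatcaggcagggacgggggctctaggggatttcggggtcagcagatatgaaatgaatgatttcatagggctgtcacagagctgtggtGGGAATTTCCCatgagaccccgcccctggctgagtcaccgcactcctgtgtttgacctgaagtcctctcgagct
BIRC3: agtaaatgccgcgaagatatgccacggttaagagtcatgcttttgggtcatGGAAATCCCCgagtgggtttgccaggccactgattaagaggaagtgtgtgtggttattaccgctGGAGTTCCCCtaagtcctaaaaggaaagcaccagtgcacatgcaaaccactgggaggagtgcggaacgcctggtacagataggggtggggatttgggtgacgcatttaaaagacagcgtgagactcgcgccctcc
TRAF3: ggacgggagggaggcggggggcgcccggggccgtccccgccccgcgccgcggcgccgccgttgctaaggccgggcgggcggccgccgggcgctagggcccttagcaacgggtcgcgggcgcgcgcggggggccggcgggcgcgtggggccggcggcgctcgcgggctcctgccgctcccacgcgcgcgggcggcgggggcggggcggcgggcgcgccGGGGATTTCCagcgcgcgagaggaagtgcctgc
Windows were found for 35 of the 50 members, 48 windows in all, and both strands were searched. The NF-kB consensus stood in 10 of the 48 (20.8%), from 8 members, and in 5.21% of the 35116 windows of the table. The other members with a match were FAS, LTB, TNFRSF14, TNFSF13 and TNFSF14. FAS and TNFSF13 were tested and not called higher in either line, whereas LTB, TNFRSF14 and TNFSF14 were too low to test. The matched windows of LTB overlap each other, as do those of TNFSF14. The windows of TRAF1 held no match, which says only that these letters are not in these windows. TNFRSF19, also called higher in TPC-1, was not among the members with a match either. The AP-1 motif TGANTCA stood in windows of 5 members (CD27, FAS, TNFRSF9, TNFSF14 and TNFSF15) and in 6.57% of all windows, and the FOXO motif GTAAACA in those of LTB and in 2.98% of all.

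Responses of the lines were compared for the 27 members tested in both. The log2 fold change in TPC-1 minus that in LC-2/ad was called for 14 of them (51.9%), 8 higher and 6 lower. Over all 11996 genes 36.6% were called, 22.2% higher and 14.4% lower, and the median difference was 0.14 for the members and 0.04 for all genes. With mitochondrial genes removed and the TPM rescaled, the calls over all genes were 2070 higher and 2292 lower, against 2660 and 1733. For the members they were then 6 higher and 6 lower. TNFRSF10B and TRAF2 lost their call in that fit. In the main fit the 8 higher ones were TRAF1, TNFRSF9, TNFRSF12A, BIRC3, TNFRSF10A, TRAF3, TNFRSF10B and TRAF2. The 6 lower ones were TNFSF10, TNFRSF25, CD40, CD27, TNFRSF1A and TNFRSF21. Among those, TRAF1, TNFRSF9 and BIRC3 rose in both lines, and by more in TPC-1 on the log2(TPM + 1) scale. In TPM the mean of BIRC3 rose by 29.9 in LC-2/ad against 5.93 in TPC-1. With a pseudocount of 5 its difference did not pass, at 0.18 (limma, adjusted p = 0.181). TNFRSF10A fell in LC-2/ad, and TNFSF10, TNFRSF25, CD40, CD27 and TNFRSF21 rose there.

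**Figure D4:**
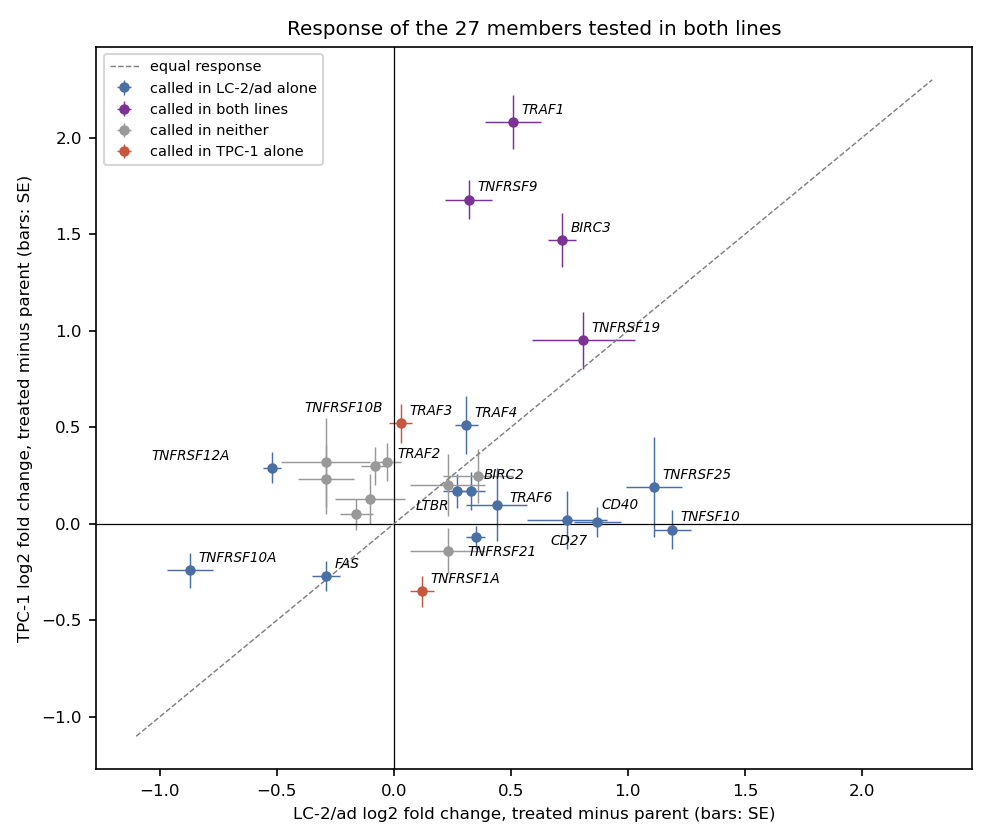
Log2 fold change, treated minus parent, of the 27 members tested in both lines, LC-2/ad on the horizontal and TPC-1 on the vertical axis, with SE bars, colours for the lines in which a member was called and a dashed line of equal response. TRAF1, TNFRSF9 and BIRC3 lie above the dashed line at 2.08, 1.68 and 1.47 in TPC-1, and TNFSF10, TNFRSF25 and CD40 lie at 0.87 to 1.19 in LC-2/ad near 0 in TPC-1.

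Members that neighbour each other on a chromosome were compared. CD27, LTBR and TNFRSF1A have starts within 200 kb on chromosome 12, and in LC-2/ad CD27 and LTBR were higher while TNFRSF1A had 0.12 ± 0.05. TNFRSF18 lies beside TNFRSF4 and TNFRSF1B near TNFRSF8 on chromosome 1, and TNFRSF4 and TNFRSF8 were too low to test. TNFSF15 lies near TNFSF8 on chromosome 9, and TNFSF8 was likewise too low. CD70, TNFSF9 and TNFSF14 form a group on chromosome 19 in which TNFSF9 alone was tested, in LC-2/ad. Neighbours thus included both called and uncalled members.

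In LC-2/ad 16 members were below the level for testing and in TPC-1 23, including those 16. The 16 were CD70, FASLG, LTB, NGFR, TNFRSF4, TNFRSF8, TNFRSF13B, TNFRSF13C, TNFRSF14, TNFRSF17, TNFSF4, TNFSF8, TNFSF11, TNFSF14, TNFSF18 and TNFSF12-TNFSF13. Most of these encode ligands and receptors known from lymphocytes. Their highest value in LC-2/ad was 1.24 TPM, for NGFR, and the highest of the 23 in TPC-1 was 1.39 TPM, for TNFSF13B. In TPC-1 6 members were listed at 0 in every library. The 3 tested members with a group mean below 1 TPM were TNFRSF6B, TNFRSF11B and TNFSF13B, all in LC-2/ad.

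Other genes of the pathway were taken from lists chosen with earlier results of these data known. Of 40 intermediates that carry the signal from receptors, all were tested in LC-2/ad, with 15 higher and 5 lower and a median of 0.08, and 39 in TPC-1, with 5 higher, none lower and a median of 0.09. The shares called over all genes were 55% and 4.96%. Among those called in LC-2/ad the largest were RIPK3, the kinase of necroptosis, which rose by 1.35 ± 0.17 (limma, adjusted p = 0.000382), the deubiquitinase CYLD by 0.77 ± 0.15, the TNF receptor adaptor TRADD by 0.71 ± 0.08, and CFLAR, an inhibitor of caspase-8 activation, by 0.59 ± 0.04. Among those called in TPC-1 they were MAP3K14, the NF-kB inducing kinase that TRAF3 and the cIAPs keep low, which rose by 1.12 ± 0.18 (adjusted p = 0.00887), then CYLD by 0.45 ± 0.11, TNIP1 by 0.43 ± 0.07 and CFLAR by 0.38 ± 0.07. RIPK3 was near 0 in TPC-1, at 0.013 TPM in parent cells, and was not tested there.

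Of 13 relatives outside the naming rule, 8 were tested in LC-2/ad with 2 higher and 2 lower, and 9 in TPC-1 with 1 higher, against 55% and 4.96% of all genes called in either direction; the medians were 0.05 and 0.22. The receptor RELT fell in LC-2/ad by 1.26 on the log2 scale (SE 0.12, limma adjusted p = 7.82e-05), with RELL2 lower at -0.43 ± 0.15 and RELL1 higher at 0.67 ± 0.1. TRAFD1, a protein with a TRAF-type zinc finger, rose in both lines, by 0.62 ± 0.05 in LC-2/ad against 0.55 ± 0.07 in TPC-1 (adjusted p = 4.21e-05 and 0.00381). Of 26 NF-kB target genes outside the family 23 were tested in LC-2/ad, with 14 higher, 2 lower and a median of 0.39, and 22 in TPC-1, with 15 higher, none lower and a median of 0.96. Over all genes 30.6% were called higher in LC-2/ad, against 3.75% in TPC-1. SOD2 had 2 rows and was given no value, and TNFAIP3 is counted in this list and among the intermediates. In TPC-1 IL6 rose by 2.16 ± 0.12, CCL2 by 2.14 ± 0.09, NFKBIA by 1.52 ± 0.11 and ICAM1 by 1.43 ± 0.11. In LC-2/ad CXCL3 rose by 1.62 ± 0.14, IL32 by 1.49 ± 0.08 and CCL20 by 1.19 ± 0.15. The 2 lower there were PLAU at -1.2 ± 0.04 and IL6 at -0.51 ± 0.11 (limma, adjusted p = 0.00451). IL32 was also called higher in TPC-1, and NFKBIA in LC-2/ad.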

How the data were processed

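RNA from 12 libraries of 2 cell lines was analysed as TPM per gene, which the authors deposited as 1 table per line of 37247 Ensembl identifiers. The TPM are scaled to the same total in each library, per the labels and the values. Per the submitters' processing notes, Salmon, bcl2fastq 2.20.0 and GRCh38 were used, in roles not named; annotation, gene summing, strand setting and filters are not given in the sources used here. TPM divide by transcript length and by all transcripts of a library, so a large change elsewhere shifts every gene. Depth is unknown. No deposited column was left out.

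Of the rows, 34436 had a symbol and 34620 were in GENCODE 29, the source of the coordinates. Of the 50 members 30 overlap another annotated gene, 16 of them on the same strand. Sequences are RefSeq promoter windows of GRCh38.p14. Within each line log2(TPM + 1) was fitted with limma 3.58.1 in R 4.3.3 (eBayes with a variance trend, two-sided), for genes whose mean was at least 1 TPM, and all 12 libraries were fitted for the difference between lines, for genes at that level in each line. P-values were adjusted over all genes tested. The fits were tested on simulated data. The members, lists and tests were chosen with earlier results of these data known. Every member is accounted for, and 1 marker gene is not reported here. Those called with a log2 fold change of at least 0.5, or differing between lines, are given by library. From each other list up to 4 called genes per line with the largest changes are named. IL6, IL32 and NFKBIA are named for both lines. Alternatives changed the pseudocount (0.1 or 5), the filter, the scaling, the variance trend, the replicate block and the libraries used. The main fits did not pair libraries by replicate number.
Figures were drawn with matplotlib 3.10.9 under Python 3.11.15, with pandas 2.3.3 and numpy 2.4.6.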

Additional observations from a re-analysis of the deposited data

Results flagged for a closer look

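The response differed between the lines by limma's test of the difference (TPC-1 minus LC-2/ad, log2 scale, adjusted p under 0.05) for 14 of 27 members, against 36.6% of all 11996 genes. The signed difference does not give the size of the response in either line. It was above 0 for TRAF1 at 1.57, TNFRSF9 at 1.36 and BIRC3 at 0.76, which rose in both lines, and for TNFRSF12A at 0.81 and TNFRSF10A at 0.64, which fell in LC-2/ad and were not called in TPC-1. It was also above 0 for TRAF3 at 0.49, TNFRSF10B at 0.38 and TRAF2 at 0.35. It was below 0 for TNFSF10 at -1.23, TNFRSF25 at -0.92, CD40 at -0.86, CD27 at -0.72 and TNFRSF21 at -0.42, which rose in LC-2/ad and were not called in TPC-1, and for TNFRSF1A at -0.46, which fell in TPC-1 and was not called in LC-2/ad. Of these 14 calls 10 held under every alternative in which the member was tested, and those of BIRC3, TNFRSF10B, TNFRSF25 and TRAF2 did not. CD27, TNFRSF9 and TRAF1, among the 10, were not tested where testing started at a mean of 5 TPM.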

How the results depend on the processing

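Of the called members 14 of 19 in LC-2/ad and 4 of 6 in TPC-1 kept their call under every alternative in which they were tested. No member changed direction while called. In TPC-1 those 4 were TRAF1, TNFRSF9, BIRC3 and TNFRSF19. Of the members that kept their call, TNFRSF6B, TNFRSF25 and TRAF1 in LC-2/ad and TRAF1 and TNFRSF19 in TPC-1 were below a mean of 5 TPM. They were thus not tested in the fit that started there. Testing from a mean of 5 TPM upward left 9 members higher and 3 lower in LC-2/ad, since fewer members were tested. A pseudocount of 5 lowered the values of the low genes CD27, TNFRSF18, TNFRSF1B, TNFRSF9 and TRAF1 in LC-2/ad to 0.46, -0.25, 0.29, 0.18 and 0.24, and the differences of CD27, CD40, TNFRSF25 and TRAF1 to -0.45, -0.57, -0.51 and 0.87, all still called. After median-of-ratios scaling 8 were lower in LC-2/ad, with TNFRSF10B, TNFRSF10D and TRAF7 added, and 2 in TPC-1, with FAS added. The 1 call lower in TPC-1 became 0 without a filter and 0 without the variance trend; the cause was not tested. With mitochondrial genes removed 17 members were higher in LC-2/ad, with TNFRSF1A, TNFSF13 and TNFSF15 added, and over all genes 5164 were higher and 2827 lower. Leaving out 1 library gave 10 to 14 members higher and 4 to 6 lower in LC-2/ad, 4 to 5 and 0 to 1 in TPC-1, and 6 to 9 and 5 to 6 for the difference. Where this left 2 libraries in a group, the spread was pooled with the other groups. Over all genes the calls ranged more: without TPC-1 parent library 3 they were 222 higher and 70 lower, and without parent library 1 662 and 138. A replicate block gave 12 higher and 5 lower in LC-2/ad, 4 higher and 1 lower in TPC-1, and 8 and 5 for the difference. The replicate numbers share no stated culture or day, deviations of libraries with the same number correlated between -0.048 and 0.054, and not every library correlated best with its own number. The LC-2/ad calls of TNFRSF18, TNFRSF1B, TNFRSF9, TNFRSF19 and TRAF6 were each lost under at least 1 alternative, and the depth behind them is unknown.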
